A study of Mus musculus with 72 samples.

Results

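The LIM-only genes Lmo1, Lmo2, Lmo3 and Lmo4, the LIM-domain-binding genes Ldb1 and Ldb2, and the LIM-homeodomain gene Lhx2 were followed by symbol in the olfactory epithelium of mouse pups, the tissue of the nose that holds the odour-sensing neurons. These are 7 of the 54532 genes listed, and all 7 had enough reads to be tested. Lmo4 was selected because its level was higher with ectopic Fzd1, so its difference between ectopicFzd1 and control libraries without doxycycline (DOX) is described here with no test. The other 6 were chosen by name, as relatives or known partners, and are tested. Fzd1 encodes a receptor for Wnt ligands.

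Total RNA was sequenced from 72 libraries in 25 groups, of which 22 hold 3 libraries and 3 hold 2 (control at P3, control at P7 and ectopicFzd1 at P14, where P is the postnatal day). The ectopicFzd1 mice carried Omp-IRES-tTA and tetO-Fzd1-IRES-tdTomato, in which the tTA transactivator made from the Omp locus drives Fzd1 in cells that express Omp, the marker of mature olfactory sensory neurons. The Fzd1lacZ mice carried a Fzd1-lacZ allele, named in the titles as a homozygous knockout, and the control mice carried Omp-IRES-tTA alone. Each of the 3 genotypes has libraries without DOX from P0, P3, P7, P10 and P14. For ectopicFzd1 and control mice, a second course (P1 and then the same later days) was given DOX from P0, which keeps tTA from its target and so the transgene off. By the genotype labels, every control and ectopicFzd1 mouse carried the altered Omp locus, and the labels do not say that Fzd1lacZ mice did. Labels give no wild-type littermates of the Fzd1lacZ mice, so allele and background cannot be told apart in that comparison.

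LIM-only proteins consist of LIM domains, which bind other proteins, and have no DNA-binding domain. Ldb1 and Ldb2 bind LIM domains and join LIM-homeodomain or LIM-only proteins into larger complexes, so that a LIM-only protein can compete with a LIM-homeodomain factor for the same Ldb cofactor. In mouse olfactory neurons, Lhx2 and Ldb1 are known for their binding at the enhancers of odorant receptor genes.

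Gene counts per library were between 1314528 and 8788000. A family of 13 predicted, satellite-like genes of the Gm10800 type took 0.054% to 73.8% of them and was above 25% in 8 libraries. Fzd1 was at 204 to 2110 CPM (counts-per-million) in 13 of the 14 ectopicFzd1 libraries without DOX, against 20.8 to 44.0 CPM in the 13 control libraries. The library labelled ectopicFzd1 P3 replicate 3 had 42.8 CPM of Fzd1, and that labelled control DOX P7 replicate 1 had 3.43 CPM, so both go against their labels. In Fzd1lacZ libraries it was 3.46 to 20.1 CPM. A single ID stands in the titles of all 3 ectopicFzd1 DOX libraries of P3, and another in those of 1 such library of P10 and 1 of P14. Where nothing says that libraries came from separate animals, p-values measure only the spread between these samples. All 15 markers of mature olfactory sensory neurons were detected in every library.

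The level of Omp itself was not uniform among groups with the same genotype label. Without DOX, Omp averaged 156.5 CPM at P0 and 17.8 to 35.01 CPM at later ages in ectopicFzd1 groups, and 585 to 2211 CPM in Fzd1lacZ groups. In control groups without DOX it averaged 225 CPM at P0, 27.7 CPM at P3, 29.9 CPM at P7, 51.35 CPM at P10 and 1402 CPM at P14. With DOX it averaged 24.8 to 56.2 CPM in ectopicFzd1 groups, against 220.9 CPM at P1, 29.9 CPM at P3, 543 CPM at P7, 876 CPM at P10 and 1289 CPM at P14 in control groups. Cnga2, a channel gene of mature neurons, averaged 127, 251, 343, 491 and 592 CPM from P0 to P14 in the control groups without DOX, so the low Omp of the middle ages was not shared by it. Every comparison with control groups holds this split, and its part in the results was not tested.

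Lmo4 lies on the minus strand of chromosome 3 (mm10, 144188530 to 144205220). Promoter windows of 250 bases before an annotated start site were in the RefSeq table (GRCm38.p6) for 5 of the 7 genes, in 11 windows. They were searched on both strands for CTTTGA, the core that TCF/LEF factors of the Wnt pathway bind, for TAATTA, a core of homeodomain binding, and for CCCNNGGG, the core of Ebf binding. These were found in 13.8%, 4.84% and 11.8% of all 32851 windows of this length. None of them was in any of the 3 Lmo4 windows, whose first was 82.4% G and C. In the first Lmo1 window, TCF/LEF and homeodomain cores began 236 and 186 bases before the start site. The only Lmo3 window held the TCF/LEF core 68 bases before it, the second Ldb1 window the Ebf core 47 bases before it, and both Lhx2 windows held none. Windows of a single gene can overlap, and a match is a description of letters, not of a bound site. The first windows of Lmo4, which of the 7 differed most between ectopicFzd1 and control without DOX, and of Lmo1, the gene with most matches, are shown with matches in capitals, 5′ to 3′ on the gene's strand.
Lmo4, chr3:144205256-144205505, minus strand: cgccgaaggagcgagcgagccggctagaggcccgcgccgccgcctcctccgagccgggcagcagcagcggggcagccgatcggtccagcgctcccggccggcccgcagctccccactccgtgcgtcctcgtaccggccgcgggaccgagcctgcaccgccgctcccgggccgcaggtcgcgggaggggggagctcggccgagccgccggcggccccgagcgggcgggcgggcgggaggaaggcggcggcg
Lmo1, chr7:109175208-109175457, minus strand: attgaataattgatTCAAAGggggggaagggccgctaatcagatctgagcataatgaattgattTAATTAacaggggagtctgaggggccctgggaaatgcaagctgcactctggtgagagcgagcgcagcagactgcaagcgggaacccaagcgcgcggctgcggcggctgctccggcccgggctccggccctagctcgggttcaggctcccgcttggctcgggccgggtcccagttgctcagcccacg

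Per unit of length, Ldb1, Lmo4 and Lhx2 were the most abundant of the 7. Their median levels over the 72 libraries were 30.3, 27.4 and 27.3 TPM (transcripts-per-million, which divides counts by gene length). Lmo2 had a median of 8.97 TPM, Lmo1 of 3.42 TPM and Ldb2 of 2.50 TPM. Lmo3 was near the limit of detection, with a median of 8 counts a library and 0.515 TPM. Its highest level, 23.0 CPM, was in Fzd1lacZ P10 replicate 1, the shallowest library, in which Lmo1 had 0 counts and the Gm10800-type family took 68.3%. Lmo4 and Ldb2 overlap predicted genes on their own strand, and Lmo1, Lmo2, Lmo3, Ldb1, Ldb2 and Lhx2 each have an overlapping gene on the other strand. How counting used strand or split reads between overlapping genes is not given in the sources used here, so reads of such pairs cannot be told apart.

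Lmo4 was highest in ectopicFzd1 epithelium without DOX. At P0, Lmo4 was at 151, 275 and 171 CPM in ectopicFzd1 libraries, against 85.7, 94.3 and 77.9 CPM in control libraries. At P10 it was at 141, 189 and 141.0 CPM in ectopicFzd1 libraries, against 64.9, 66.85 and 70.6 CPM in control libraries. At P14 it was at 133 and 117 CPM in ectopicFzd1 libraries, against 69.9, 63.5 and 66.6 CPM in control libraries. At these 3 ages every ectopicFzd1 library lay above every control library, and replicate 2 at P0 was the highest of the study. Such separation follows in part from the selection of Lmo4 on this contrast. At P3 Lmo4 was at 119.8, 107 and 61.1 CPM in libraries labelled ectopicFzd1, against 89.7 and 90.3 CPM in control libraries. The 61.1 CPM belongs to replicate 3, the library with 42.8 CPM of Fzd1, and here the groups overlapped. At P7 it was at 89.9, 93.1 and 95.55 CPM in ectopicFzd1 libraries, against 81.1 and 79.9 CPM in control libraries, a smaller step with no overlap.

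**Figure D1:**
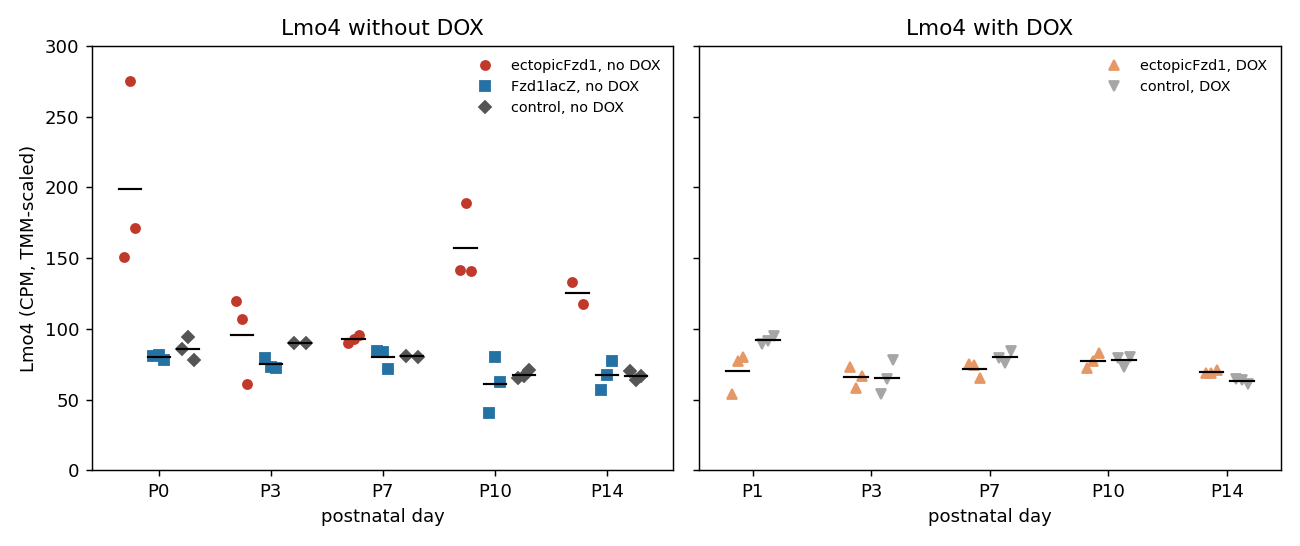
Lmo4 level (CPM, vertical axis) in each library (points) by postnatal day, without DOX on the left and with DOX on the right; bars are group means. Without DOX, ectopicFzd1 libraries at P0, P10 and P14 sit between 117 and 275 CPM, above all Fzd1lacZ and control libraries; with DOX the genotypes lie in one band of 53.95 to 94.8 CPM.

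Averaged over the 5 ages, the Lmo4 log2 difference of ectopicFzd1 over control without DOX was 0.73 (SE 0.080, 95% interval 0.57 to 0.89), or 1.66-fold. This interval does not allow for the selection of Lmo4 on this contrast, so its distance from 0 is no test. By age it was largest at P10 (1.23) and P0 (1.21), followed by P14 (0.91), P7 (0.21) and P3 (0.11). The edgeR quasi-likelihood fit called 9.19% of the 22144 genes tested in the averaged comparison, 590 higher (2.66%) and 1444 lower (6.52%). Control Omp was low at P3, P7 and P10, where the Lmo4 difference was 0.11, 0.21 and 1.23. It was higher at P0 and P14, where the Lmo4 difference was 1.21 and 0.91. The part of the Omp split in these values was not tested. Without the library labelled ectopicFzd1 P3 replicate 3, the Lmo4 difference at P3 was 0.33. Without ectopicFzd1 P0 replicate 2, that at P0 was 0.905. With the series of the title IDs (their leading digits) as a covariate, which could be fitted at P0, P3, P7 and P10, the average was 0.68. On the log2(TPM + 1) scale the sign turned at P3 (−0.18) and P7 (−0.46), and the average was 0.48, where all genes had a median shift of −0.11.

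The Lmo4 and Fzd1 levels were high in the same libraries. In the 13 ectopicFzd1 libraries with Fzd1 above every other library, Lmo4 was between 89.9 and 275 CPM. In the other 59 libraries, Lmo4 was between 40.2 and 94.8 CPM, and 11 of the 13 lay above all of them. The 13 are among the libraries Lmo4 was selected on, so this separation is a description that follows in part from the selection. Within the 13, the libraries with most Fzd1 were not those with most Lmo4. Fzd1 was at 336, 204 and 352 CPM at P0, the lowest of the 13, where Lmo4 was at 151 CPM or more. It was at 725, 710 and 612 CPM at P7, where Lmo4 was at 95.55 CPM or less.

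**Figure D2:**
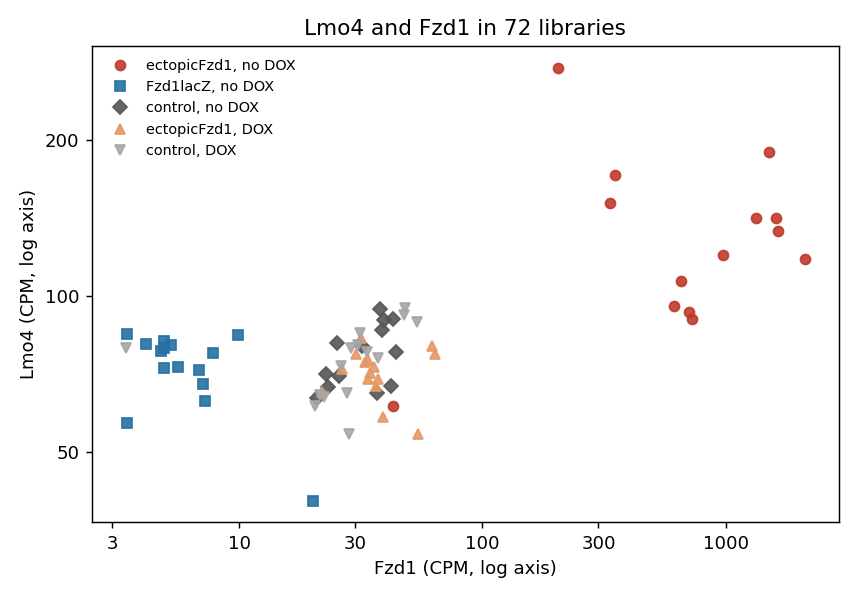
Lmo4 (CPM, vertical) against Fzd1 (CPM, horizontal), both on log axes, 1 point a library for 72 libraries, coloured by genotype and DOX. The 13 ectopicFzd1 libraries without DOX at 204 CPM of Fzd1 or more lie at 89.9 to 275 CPM of Lmo4, and all others at 40.2 to 94.8 CPM.

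Ordered by mean Lmo4 level, the 5 ectopicFzd1 groups without DOX took the first 5 of 25 places, with 199.1 CPM at P0, 157 CPM at P10, 125 CPM at P14, 95.95 CPM at P3 and 92.9 CPM at P7. Lmo4 was selected on these groups, so their places are a description. The next were control with DOX at P1 (91.8 CPM) and control at P3 (90.0 CPM), and the last was Fzd1lacZ at P10 (61.0 CPM). Of the 24 steps between neighbours in this order, 2 were larger than the pooled SD of both groups, and in 1 the ranges did not overlap, that between ectopicFzd1 at P10 and at P14. Below the leading groups each step between neighbours was within the pooled SD, so neighbouring places there are not told apart. Places further apart can differ, as control with DOX at P1 (91.8 CPM, SD 2.95) and at P14 (63.2 CPM, SD 1.86).

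None of the relatives and partners of Lmo4 passed the test in the same libraries. Of the 6 other genes, 0 were called between ectopicFzd1 and control without DOX by edgeR, 0 had an unadjusted p under 0.05, and DESeq2 and limma on TPM called 0. The log2 differences were −0.11 for Ldb1, the main Ldb cofactor of neurons (95% interval −0.26 to 0.028), and 0.06 for Lhx2 (−0.12 to 0.24). They were 0.08 for Lmo1 (−0.24 to 0.40), −0.16 for Lmo2 (−0.33 to 0.012) and 0.20 for Ldb2 (−0.15 to 0.55). The low counts of Lmo3 leave a wide interval around its value of −0.56 (−1.16 to 0.036). At single ages, where the share of genes called was 0.754% (P0), 0.524% (P3), 0.704% (P7), 10.3% (P10) and 1.75% (P14), edgeR called 0 of these 30 gene and age pairs. An unadjusted p under 0.05 was found for 2 of them, Ldb1 at P3 and Lmo2 at P7, and DESeq2 and limma on TPM called 0. A test of whether the difference varied among ages called 0.357% of genes and 0 of the 6, none with an unadjusted p under 0.05.

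**Figure D3:**
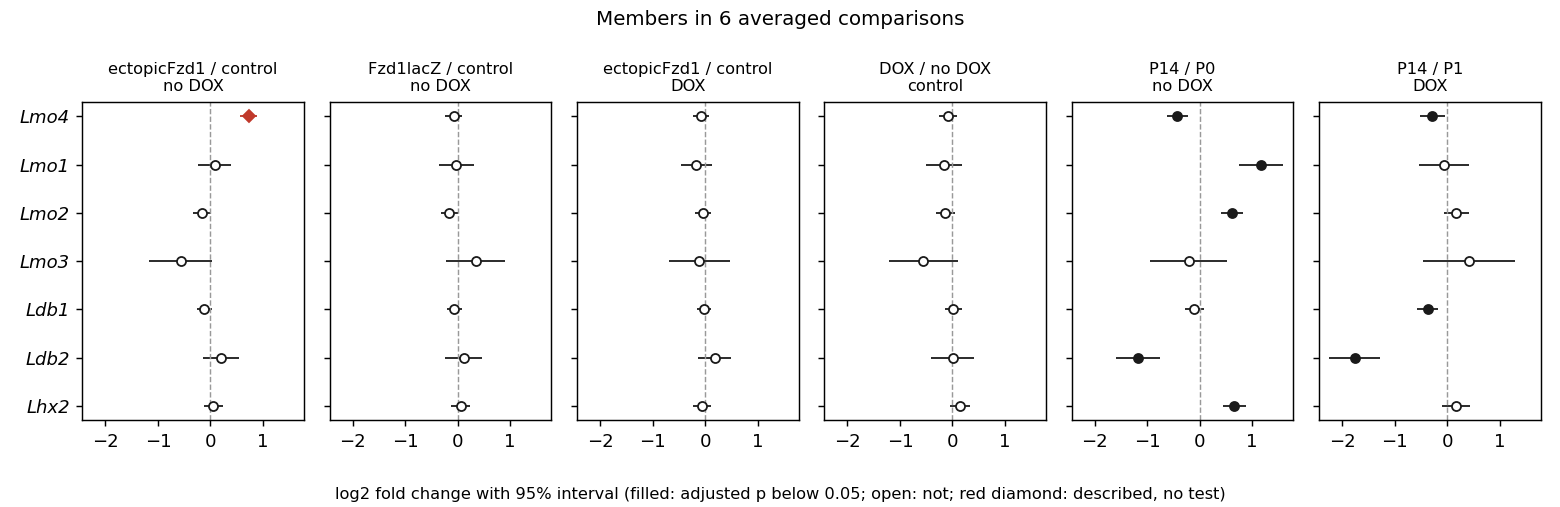
Log2 fold change (horizontal, edgeR, tested over comparison group as named above each panel) with its 95% interval for the 7 genes in 6 comparisons averaged over ages or genotypes. Filled points are called at an adjusted p below 0.05. Red diamonds are Lmo4 values given as a description, with intervals that do not allow for its selection. Lmo4 lies at 0.73 in ectopicFzd1 over control, and Ldb2 at −1.18 and −1.76 over age.

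Of 37 tested genes of proteins that work with these, 4 (10.8%) were called between ectopicFzd1 and control without DOX, a share near the 9.19% of all genes. Of the 7 Ldb complex partners and turnover genes, 0 were higher and 1 was lower in ectopicFzd1: Ssbp4, of the single-stranded DNA-binding proteins that hold Ldb proteins stable (−0.27, edgeR adjusted p = 0.036). Of 9 tested genes of Lmo4-binding proteins, 2 were higher, Brca1 (0.28, edgeR adjusted p = 0.0013), the DNA repair gene whose protein binds Lmo4 in human cells, and the histone deacetylase gene Hdac2 (0.28, edgeR adjusted p = 0.0087). Of 5 genes for factors that bind receptor enhancers beside Lhx2, 0 were higher and 1 was lower, Ebf4 (−0.38, edgeR adjusted p = 0.0039). The median log2 differences of these 3 lists were 0.0030, 0.07 and −0.19, against −0.01 over all genes. Of the 8 tested LIM-homeodomain genes, and of the 8 genes of the Lmo2 complex of blood and vessel cells, none was called by edgeR in either direction, and 1 of each list had an unadjusted p under 0.05.

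Markers of mature neurons were lower in the same ectopicFzd1 libraries. Of 15 such markers, 0 were higher and 12 were lower, with a median of −0.78, where 6.52% of all genes were called lower. The lower markers include the cilium gene Stoml3 (−1.48) and the adenylyl cyclase gene Adcy3 (−1.05). Omp was at −1.61 on average, with −5.57 at P14 and −0.52 at P0, the ages of higher control Omp. At the ages of low control Omp it was −1.34 (P10), −0.73 (P3) and 0.09 (P7). These values thus did not follow the split among control groups at every age, and the part of that split was not tested. Without Omp, 11 of 14 markers were lower with a median of −0.77. By age, 0 (P0), 1 (P3), 8 (P7), 7 (P10) and 7 (P14) of the 14 were lower, and 1 was higher at P10. Of all genes, 0.754%, 0.524%, 0.704%, 10.3% and 1.75% were called in either direction at these ages. The summed level of all 15 markers, Omp included, was 173 to 444 TPM in ectopicFzd1, against 314 to 1603 TPM in control libraries. Omp itself was at 2.46 to 54.07 TPM in the former and 6.34 to 317.25 TPM in the latter. No marker was at 0 in any library. Of 9 markers of immature neurons 1 was higher, Gng8 (0.34), and of 9 progenitor markers 2, Ezh2 (0.22) and Top2a (0.31), where 2.66% of all genes were called higher. In bulk tissue, fewer cells of a type and less RNA per cell cannot be told apart. The part of these changes in the level of Lmo4 was not tested.

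The balance of Lmo4 and Ldb1 was compared within libraries as the ratio of their TPM values. The median ratio was 1.41 in the 14 ectopicFzd1 libraries without DOX (0.983 to 2.75), 0.778 in Fzd1lacZ, 0.755 in control, 0.752 in ectopicFzd1 with DOX and 0.745 in control with DOX. Lmo4 exceeded Ldb1 in 13 of 14 ectopicFzd1 libraries without DOX, and in 3 of the other 58. By age, the geometric mean ratio in ectopicFzd1 was 1.95 (P0), 1.13 (P3), 1.12 (P7), 1.72 (P10) and 1.40 (P14), against 0.883, 0.753, 0.890, 0.726 and 0.650 in control in the same order of days. The mean log2 ratio was higher by 0.88 in ectopicFzd1 than in control, given as a description since it holds the contrast Lmo4 was selected on. In Fzd1lacZ against control the log2 difference was 0.03 (exact permutation test within ages, 2-sided p = 0.717). In ectopicFzd1 against control, both with DOX, it was −0.06 (exact permutation test, 2-sided p = 0.523).

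**Figure D4:**
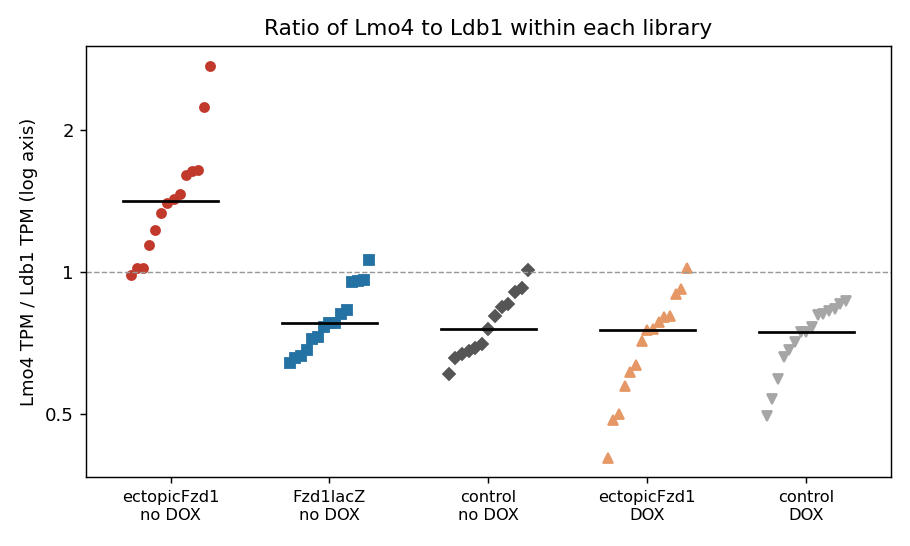
Ratio of Lmo4 to Ldb1 TPM (vertical, log axis) in each of 72 libraries by genotype and DOX; lines are medians. The ectopicFzd1 libraries without DOX have a median of 1.41, and the 4 other classes have medians between 0.745 and 0.778.

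Loss of Fzd1 did not bring a detected change in any of the 7 genes on the count scale. Genotype and the series of the title IDs could be told apart in this comparison at P14 only. In Fzd1lacZ against control, edgeR called 2.85% of genes and 0 of the 7, with 0 at an unadjusted p under 0.05 and 0 by DESeq2. Lmo4 was at 40.2 to 84.2 CPM in the 15 Fzd1lacZ libraries with a median of 77.3 CPM, against 63.5 to 94.3 CPM with a median of 77.9 CPM in the 13 control libraries. Its log2 difference was −0.08 (95% interval −0.24 to 0.083, edgeR adjusted p = 0.74). The differences were −0.06 for Ldb1, 0.06 for Lhx2, −0.16 for Lmo2, −0.02 for Lmo1, 0.11 for Ldb2 and 0.34 for Lmo3.

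On the log2(TPM + 1) scale, limma called 4 of the 7 lower in Fzd1lacZ, with Lmo4 at −0.43 (limma adjusted p = 0.039). The share of all genes that limma called was not counted, here or below, so whether its calls exceed the general rate is unknown. All genes together had a median shift of −0.125 there, and the Gm10800-type family took up to 851200 TPM in a Fzd1lacZ library. The ratio of Lmo4 to Ldb1, which that share does not enter, is the one given above for Fzd1lacZ. By age, the share of genes called was 7.76% (P0), 1.08% (P3), 0.0858% (P7), 0.289% (P10) and 0.714% (P14), and edgeR and DESeq2 called 0 of 35 gene and age pairs. An unadjusted p under 0.05 was found for 4, Lmo1 at P0, Lmo2 at P3, Lmo3 at P10 and Lhx2 at P14, and limma on TPM called 5. The edgeR test for a difference among ages called 2.68% of genes and 0 of the 7, none with an unadjusted p under 0.05. Of the 37 partner genes 1 (2.7%) was called, Rlim, whose protein marks Ldb proteins for degradation (−0.24, edgeR adjusted p = 0.043), a share near the 2.85% of all genes.

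With DOX, none of the 7 genes passed the test between the genotypes. Genotype and the series of the title IDs could be told apart here at P1 only. Lmo4 had a minimum, median and maximum of 53.95, 72.2 and 82.65 CPM in 15 ectopicFzd1 libraries with DOX, against 54.1, 77.9 and 94.8 CPM in 15 control libraries with DOX. The log2 difference of Lmo4 was −0.08 (SE 0.075, edgeR adjusted p = 0.85). In this comparison 0.826% of genes were called and 0 of the 7 were, with 0 at an unadjusted p under 0.05 and 0 by DESeq2 or limma on TPM. The other differences ran from −0.17 for Lmo1 to 0.18 for Ldb2. The split in Omp was wide here, with 34.65 CPM at P10 in ectopicFzd1, against 876 CPM in control, both with DOX. By age, the share of genes called was 14.8% (P1), 0.176% (P3), 0.569% (P7), 0.0858% (P10) and 0.199% (P14), and all 3 tools called 0 of 35 pairs. Those with an unadjusted p under 0.05 were 3, Lmo4 at P1 (−0.38), Lmo2 at P7 (0.35) and Lmo1 at P14 (−0.71). The edgeR test for a difference among ages called 9.6% of genes and 0 of the 7, with Lmo2 the 1 gene at an unadjusted p under 0.05.

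In control mice, DOX against no DOX at the 4 shared ages called 0.867% of genes and 0 of the 7, by edgeR, DESeq2 and limma on TPM, and 0 had an unadjusted p under 0.05. Omp averaged 876 CPM with DOX at P10, against 51.35 CPM without DOX. Lmo4 differed by −0.09 (95% interval −0.26 to 0.095) and Lhx2 by 0.15 (−0.054 to 0.34). DOX and the series of the title IDs could be told apart at P3 and P14 only.

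Within ectopicFzd1 mice, Lmo4 was higher without DOX than with it by 0.70 (SE 0.086) at the same 4 ages, as a description. Here 7.5% of genes were called and 0 of the 6 other genes by edgeR and DESeq2, with 0 at an unadjusted p under 0.05; limma on TPM called 1, Lmo2. The difference between the DOX states in the effect of the transgene was 0.62 for Lmo4 (95% interval 0.37 to 0.87), also as a description. That comparison called 2.38% of genes and 0 of the 6, with Lmo2 (−0.28, edgeR adjusted p = 0.40) the 1 gene at an unadjusted p under 0.05 and 0 by DESeq2 and limma on TPM. Both comparisons share the ectopicFzd1 libraries without DOX with the one Lmo4 was selected on. The SE and interval of Lmo4 in them do not allow for that selection and are no test. The series of the title IDs could be told apart from DOX within ectopicFzd1 at P7, P10 and P14. For the difference between DOX states it could be told apart at P14 only. Among the 37 partner genes 4 (10.8%, against 7.5% of all genes) were called: Ssbp4 (−0.29), Ebf3 (−0.28) and Ebf4 (−0.55) were lower and Brca1 (0.21) was higher without DOX than with DOX in ectopicFzd1. In the difference between DOX states, and in both other comparisons with DOX, none of the 37 tested partner genes was called by edgeR. Those with an unadjusted p under 0.05 were 4 in the difference between DOX states, 4 in ectopicFzd1 against control with DOX, and 7 in control with against without DOX. The share of all genes at that unadjusted cut was not counted.

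More of these genes passed the test between ages than between genotypes. Averaged over the 3 genotypes without DOX, P14 against P0, edgeR called 58.8% of all genes, 31.6% higher and 27.2% lower, so that a call here is common, and 5 of the 7. Lmo1, Lmo2 and Lhx2 were higher at P14, and Lmo4 and Ldb2 were lower. The Lmo4 call rests in part on ectopicFzd1 libraries it was selected on, so it is not read as a test of age. The values below are on the CPM scale.

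Lmo2, best known as a regulator in blood and vessel cells, was at 26.3 to 39.99 CPM at P14 with a median of 32.9 CPM, against 16.1 to 25.6 CPM at P0 with a median of 21.2 CPM. All 8 libraries at P14 lay above all 9 at P0, and the log2 difference was 0.62 (SE 0.10, edgeR adjusted p = 1.2e-06). How many of all genes had ranges as separate between these ages was not counted. The sign of Lmo2 did not hold on the TPM scale, as given below. Lmo1 was at 3.46 to 12.8 CPM at P14 (median 7.32), against 1.38 to 5.87 CPM at P0 (median 3.34), a difference of 1.17 (SE 0.21, edgeR adjusted p = 3.6e-06) with overlapping ranges. Lhx2 was at 76.7 to 151.8 CPM at P14 (median 130.4), against 48.5 to 109 CPM at P0 (median 78.7), a difference of 0.66 (SE 0.11, edgeR adjusted p = 1.5e-06), also with overlap.

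Ldb2, the second Ldb cofactor, was at 2.601 to 8.23 CPM at P14 (median 4.27), against 7.62 to 15.5 CPM at P0 (median 9.98). Only 1 library at P14, Fzd1lacZ replicate 1, reached into the range of P0, and the difference was −1.18 (SE 0.21, edgeR adjusted p = 3.8e-06). Lmo4 was at 56.7 to 133 CPM at P14 (median 68.7), against 77.9 to 275 CPM at P0 (median 85.7). Its difference was −0.42 (SE 0.10), smaller than those of the 4 genes above. That average holds ectopicFzd1 libraries of P14 and P0, which were among those Lmo4 was selected on, so no p-value is given for it. By genotype, Lmo4 was called in ectopicFzd1 only. Ldb1 (−0.11, edgeR adjusted p = 0.31) and Lmo3 (−0.21, edgeR adjusted p = 0.64) were not called.

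Age was bound up with the series of the title IDs. In ectopicFzd1 and control without DOX, P14 and P0 could not be compared within a series, so age and series cannot be told apart there. In Fzd1lacZ, P14 and P0 also lay in different series, linked only by the P7 group. Its replicate 1 was of the P0 series and its replicates 2 and 3 of the P14 series. The Gm10800-type family took 1.26% of gene counts in replicate 1, 36.8% in replicate 2 and 25.7% in replicate 3. The series fit thus rests on few libraries that differ in make-up. With the series as a covariate, the P14 against P0 difference in Fzd1lacZ was 0.56 for Ldb2 (SE 0.61), −0.26 for Lhx2 (SE 0.33), −0.14 for Lmo1 (SE 0.60), 0.69 for Lmo2 (SE 0.32) and −0.12 for Lmo4 (SE 0.31). None of these was called, and the signs of Ldb2, Lhx2 and Lmo1 were opposite to those averaged over genotypes.

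**Figure D5:**
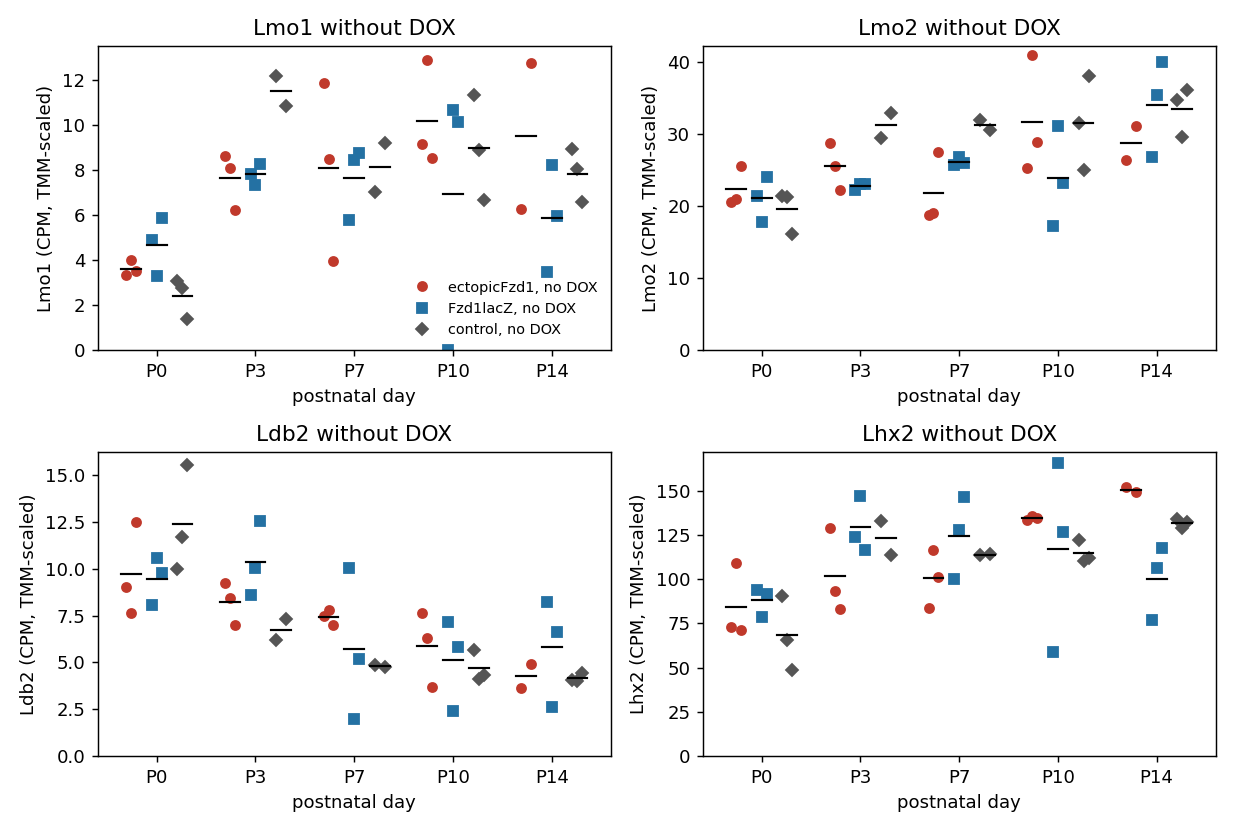
Levels (CPM, vertical) of Lmo1, Lmo2, Ldb2 and Lhx2 by postnatal day (horizontal) in libraries without DOX, 1 point a library. Short bars are group means of ectopicFzd1, Fzd1lacZ and control. Ldb2 is at 2.601 to 8.23 CPM at P14 and 7.62 to 15.5 CPM at P0, and Lmo2 at 26.3 to 39.99 CPM at P14 and 16.1 to 25.6 CPM at P0.

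By genotype, 31.9% of genes were called in ectopicFzd1, 22.5% in Fzd1lacZ and 45.7% in control. In control, Lmo1 (1.66), Lmo2 (0.78) and Lhx2 (0.95) were higher and Ldb2 (−1.55) lower at P14, with Lmo4 at −0.37 (edgeR adjusted p = 0.067). In ectopicFzd1, Lmo1 (1.41) and Lhx2 (0.84) were higher and Ldb2 (−1.17) and Lmo4 (−0.67) lower. In Fzd1lacZ only Lmo2 (0.72) was called, with Lhx2 at 0.20, Lmo1 at 0.44 and Ldb2 at −0.82 (edgeR adjusted p = 0.074). Whether the change with age differed between genotypes was not tested. In ectopicFzd1, leaving out replicate 2 at P14 ended the call of Lmo1 (0.79) and of Lmo4 (−0.58), and leaving out replicate 2 at P0 left Lmo4 at −0.36. The Ldb2 call there ended without replicate 1 (−0.97) or 2 (−1.42) at P14, each of which leaves that group with 1 library assumed to vary like the other groups, or without replicate 3 at P0 (−0.95).

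With DOX, P14 against P1, 48.4% of genes were called, 21.8% higher and 26.6% lower, and 3 of the 7. Ldb2 was at 1.82 to 7.31 CPM at P14 (median 4.14), against 11.1 to 16.2 CPM at P1 (median 13.5), with no overlap, and a log2 difference of −1.76 (SE 0.24, edgeR adjusted p = 1.4e-08). Ldb1 was at 97.2 to 119.9 CPM at P14 (median 117), against 122 to 156 CPM at P1 (median 149), again with no overlap, and a difference of −0.37 (SE 0.10, edgeR adjusted p = 0.0022). How many of all genes had no overlap between P14 and P1 was not counted. Lmo4 differed by −0.28 (SE 0.12, edgeR adjusted p = 0.046), a call that was lost in 11 of 12 fits that left out 1 library. Lmo1 (−0.06), Lmo2 (0.18) and Lhx2 (0.17), which were higher with age without DOX, were not called here. With the series of the title IDs as a covariate, only control could be fitted. Its P1 and P14 libraries lay in a single series, so the covariate could not change these differences and is no separate check. Ldb2 was at −2.07, Lhx2 at 0.46 and Lmo4 at −0.54, all called, and Ldb1 at −0.32, not called (edgeR adjusted p = 0.076). The starting age differed by a day, P1 with DOX and P0 without it. By genotype, 34.3% of genes were called in ectopicFzd1, where Ldb2 (−1.45) and Ldb1 (−0.42) were lower, and 37.8% in control, where Ldb2 (−2.07) and Lmo4 (−0.54) were lower and Lhx2 (0.46) higher. The Lhx2 call in control ended in 5 fits that left out 1 library, and the Ldb1 call in ectopicFzd1 in 4.

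These age values carry a difference in library make-up. The Gm10800-type family took 5.03% to 34.2% of gene counts at P14 without DOX (median 11.1%), against 0.054% to 13.4% at P0 (median 0.438%). With DOX it took 3.28% to 27.1% at P14, against 0.479% to 6.16% at P1. With that share as a covariate, the P14 against P0 difference was −0.19 for Lmo4 (edgeR adjusted p = 0.20), 0.81 for Lmo2, 1.53 for Lmo1, 0.78 for Lhx2 and −1.07 for Ldb2. On the log2(TPM + 1) scale, with a median shift of −0.24 over all genes, the differences were −0.04 for Lmo2, 0.03 for Lhx2, 0.37 for Lmo1, −1.14 for Lmo4 and −1.24 for Ldb2. On that scale limma called 4 of the 7, namely Lmo3, Lmo4, Ldb1 and Ldb2, all lower, with the share of all genes it called not counted. The calls of Lmo1, Lmo2 and Lhx2 as higher therefore hold on the count scale only.

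Cell type markers also moved with age, when 31.6% of all genes were called higher and 27.2% lower without DOX, and 21.8% and 26.6% with DOX. Of 8 endothelial markers without DOX, 1 was higher (Cldn5, 0.80) and 7 were lower at P14 with a median of −1.21, and their summed level was 8.8 to 17.3 TPM at P14, against 27.4 to 59.6 TPM at P0. Ldb2 is known from endothelial cells, and its lower level went with these markers, while Lmo2 was higher on the count scale. With DOX, 0 of the 8 were higher and 7 were lower, with a median of −1.62. Of 15 mature neuron markers, 13 were higher at P14 without DOX (median 1.41), against an all-gene median of 0.06, and their summed level was 443 to 1603 TPM at P14, against 293 to 873 TPM at P0. No marker of these lists was at 0 in any of these libraries. The part of cell make-up in the levels of Ldb2, Lmo2 and Lhx2 was not tested.

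Of the 37 partner genes, 26 (70.3%) were called between P14 and P0 without DOX, where 58.8% of all genes were. All 5 genes for factors that bind receptor enhancers beside Lhx2 were higher at P14 without DOX, the olfactory Ebf genes Ebf1 (0.33), Ebf2 (0.53), Ebf3 (0.29) and Ebf4 (0.79), and the homeobox gene Emx2 (0.78). Of 7 Ldb complex partners and turnover genes, 2 were higher, Ssbp2 (0.39) and Ssbp4 (0.30), and 4 were lower, Ssbp3 (−0.41), Rlim (−0.27) and the E protein genes Tcf12 (−0.58) and Tcf4 (−0.22). Of 9 Lmo4-binding partner genes, 3 were higher, Rbbp8 (0.33), Ctbp1 (0.29) and Hdac2 (0.48), and 3 lower, the transcription factor gene Deaf1 (−0.85), Brca1 (−0.73) and the corepressor gene Ctbp2 (−0.49). Of 8 genes of the Lmo2 complex, 1 was higher, Gata1, and 3 were lower, Runx1 (−1.16), Erg (−0.98) and Gata2 (−0.67).

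Among 8 tested LIM-homeodomain genes Isl1 was lower (−0.95). The 4 called higher, Lhx1, Lhx9, Lmx1a and Lmx1b, had medians of 2 to 6 counts a library with 0 counts in some, and no fold is given. With DOX, 22 of the 37 partner genes (59.5%) were called between P14 and P1, where 48.4% of all genes were. Of these, Ebf2 (0.61), Ebf4 (1.01) and Emx2 (0.41) were higher, and 5 of the 8 Lmo2 complex genes were lower, among them Erg (−2.32) and Gata2 (−1.24). Of the Ldb partners with DOX, 1 was higher, Ssbp2 (0.40), and 5 were lower, led by Tcf12 (−1.08). Of the Lmo4-binding partners with DOX, 2 were higher and 5 lower, among them Deaf1 (−1.06) and the zinc-finger repressor gene Snai2 (−1.06).

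Across the means of the 25 groups, the 7 genes followed different courses. Lmo1 was most like Lhx2 (Pearson r = 0.79 of log2 CPM) and then Lmo2 (r = 0.57), and Ldb2 ran against Lhx2 (r = −0.57). Lmo4 had r = 0.01 with Ldb1 and −0.20 with Lhx2. Of 16896 other genes, those most like Lmo4 were Krtcap2 (0.81), Hsd17b10 (0.76), Rpl10 (0.74), Cdk5rap3 (0.73), Hspa9 (0.73) and Fzd1 (0.73). Those most like Lhx2 were Pim1 (0.87), Crmp1 (0.86), Tshz1 (0.85), Fezf1 (0.85), Olig2 (0.85) and Soga3 (0.85). These values describe 25 groups that share age, depth and library make-up, and 5 of them hold the high Lmo4 levels for which that gene was selected. The likeness of Lmo4 and Fzd1 follows in part from that selection.

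The genes around Lmo4 on chromosome 3 were tested in the comparison of ectopicFzd1 and control without DOX. Of 15 other tested genes within 1 Mb, a distance chosen after the data were seen, 1 was higher and 0 were lower, beside 9.19% of all genes called, with a median log2 difference of −0.08. The 1 called was Gm43445, a sense-intronic transcript inside Lmo4 (144197172 to 144199262, minus strand), at 0.79 (edgeR adjusted p = 6.8e-04), and 1.39, 0.13, 0.20, 0.72 and 1.49 from P0 to P14. It lies within Lmo4 on the same strand, and how reads shared by both were counted is not given in the sources used here. The neighbouring genes Hs2st1 (0.02), Selenof (0.12), Sh3glb1 (0.01) and Odf2l (−0.11) were not called.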

How the data were processed

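Per the labels' protocols, TRIzol-extracted RNA was depleted of ribosomal RNA (Ribo-Zero Gold) and libraries were made with the TruSeq Stranded Total RNA kit. Per the submitters' processing notes, the authors used bcl2fastq 2.18, STAR 2.6.1c, RSEM and the mouse build mm10. One deposited table holds read counts of whole reads for each gene. The deposited TPM table holds RSEM values that the authors scaled for gene length and library. The use of strand in counting and the annotation release are not given in the sources used here. Any read mass in a few genes lowers all other TPM values of that library.

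The 7 members and the gene lists were chosen with earlier results of these data known. Counts were tested with edgeR 4.0.16 (R 4.3.3; quasi-likelihood test, TMM scaling, trended dispersion, a filter on low counts over groups) in 1 fit of all 72 libraries with 1 term per group, and p-values were adjusted by Benjamini and Hochberg over 22144 genes at 0.05. Averages weight ages or genotypes equally, and CPM values use TMM library sizes. Counts at an unadjusted p under 0.05 stand without the share of all genes at that cut, which was not counted. Named were all 7 members, called genes of the lists (at most 6 a list by smallest p; neighbours of Lmo4 and marker genes were named after their values were seen), and the 6 genes most like Lmo4 and Lhx2. TPM ratios were tested by exact permutation of genotype within age. Alternatives were DESeq2 1.42.0, its size factors, other filters, limma 3.58.1 on log2(TPM + 1) and log2(TPM + 0.1), covariates, and leaving out libraries. Fits that left out 1 library kept the dispersion trend of the full fit. The functions were tested on simulated data. Counting depth limits Lmo3 most, and the number of libraries limits all intervals.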

Additional observations from a re-analysis of the deposited data

How the results depend on the processing

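No paired analysis was possible because the labels give the groups no shared replicate numbers; the leading digits of the title IDs, shared by some groups, were fitted as a covariate instead. The Lmo4 difference, ectopicFzd1 over control without DOX, kept its direction in the 27 fits that left out 1 library and in 12 other alternatives, and was 0.7768 without both libraries that go against their labels. On TPM (pseudocount 0.1, then 1) it was 0.4878 and 0.4759, the DOX difference of Lmo4 was 0.3773 and 0.3655, and Lmo4 in ectopicFzd1 without over with DOX was 0.3593 and 0.3484. In Fzd1lacZ over control on TPM, Lmo4 was −0.4682 and −0.4322, past the threshold, and at P10 Ldb1 was −1.382 and −1.278 and Lhx2 −1.238 and −1.131, in place of values just above 0. For P14 over P0 on TPM, Lmo2 was −0.04643 and −0.04212 on average and −0.1194 and −0.1098 in Fzd1lacZ, and control Lmo3 was −0.7245 with pseudocount 1. For P14 over P1 with DOX on TPM, Lmo2 was −0.8053 and −0.7439 on average, −0.818 and −0.7542 in ectopicFzd1 and −0.7335 in control (pseudocount 1), and Lhx2 was −0.7098 and −0.6889 on average and −0.1809 and −0.1752 in control. The TPM scale moved the median of all genes by −0.11 (ectopicFzd1), −0.125 (Fzd1lacZ), −0.24 (P14 over P0), −0.39 (P14 over P1), −0.11 (DOX difference) and −0.15 (ectopicFzd1 without over with DOX), and the share of the Gm10800-type family enters every TPM value.

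With the series of the title IDs as a covariate, P14 over P0 could be estimated only in Fzd1lacZ, whose series were linked by its P7 libraries alone. There Ldb2 was 0.5579, Lhx2 −0.2606, Lmo1 −0.1376 and Lmo4 −0.1234, none called. With a covariate for the Gm10800-type share, Lmo4 was −0.1868 for P14 over P0 and control Lmo3 was −1.948. The Lmo4 call for P14 over P1 with DOX was lost under DESeq2 (−0.2208), its size factors (−0.2209), the Gm10800-type covariate (−0.1534), no filter (−0.3135), only the groups compared (−0.2033) and without libraries above 25% in that family (−0.204); leaving out single libraries gave −0.3553 to −0.2313. The cause of these changes was not tested. Leaving out single libraries moved Lmo4 between 0.6721 and 0.7769 in ectopicFzd1 over control, and between −0.4801 and −0.3232 in P14 over P0.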
